A study of Nicotiana benthamiana with 28 samples.

Results

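The XEG1 response of wild-type Nicotiana benthamiana seedlings was measured in 4 of the 28 libraries of the study, 2 from seedlings treated with XEG1 protein and 2 from mock-treated seedlings. All 4 came from 12-day-old seedlings of genotype wild type, with 3 h of treatment. Sample titles write EV for the control that the treatment field gives as mock, and they were read as the same control. The other 24 libraries came from 6 further genotypes under the same treatments: knockouts of rxeg1 and of sobir1/sobir1-like, and 4 lines labelled rxeg1 knockout whose titles add a pRXEG1:RXEG1syn construct ending in ΔCT, alone in 2 lines and with further changes in the other 2. Of the 59814 genes listed, the 35700 that averaged 1 TPM or more across the 4 wild-type libraries were tested. The 24114 genes left out include 12693 listed at 0 in all 4 libraries. Near the limit, 555 genes had a mean between 1 and 1.1 TPM and 548 a mean between 0.9 and 1 TPM.

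XEG1 is a glycoside hydrolase that the soybean pathogen Phytophthora sojae secretes and that degrades xyloglucan, a polymer of the plant cell wall. Nicotiana benthamiana recognises it at the cell surface with RXEG1, a receptor-like protein without a kinase domain of its own, which works with the receptor kinase SOBIR1 and the co-receptor BAK1. Recognition of this kind starts pattern-triggered immunity, in which plants produce reactive oxygen, activate MAP kinases and change the transcription of defence, hormone and growth genes within hours. The gene identifiers of the files, which begin with Niben101, are not paired with names there. Receptor, defence and photosynthesis genes were therefore not examined by name, the tissue label was not checked against marker genes, and no function is given for any gene below. A few genes are given by identifier and the rest by their values.

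TPM corrects reads for gene length and gives every library the same sum, so a value is a share of the transcripts measured. It keeps no sequencing depth, and the depth of the libraries is unknown. The lists of the XEG1 libraries held 33563 and 33443 genes at 1 TPM or more, against 35250 and 36104 in the mock libraries. The 24 libraries of the other genotypes held 34514 to 37043 such genes, so both wild-type XEG1 libraries lay below every other library of the study. The limit of 1 TPM was applied to these shares without any scaling between libraries. On log2(TPM + 1) over the tested genes, the 2 XEG1 libraries correlated at 0.982 with each other and the 2 mock libraries at 0.980, while an XEG1 and a mock library correlated at 0.783 to 0.817. Replicates are numbered in the labels with no word on separate plants, pools or sowings, and the spread behind each p-value may be technical. In whole seedlings, fewer cells of a type and less RNA per cell cannot be told apart.

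The first question was how many genes XEG1 changed in wild-type seedlings, and by how much. Limma's moderated test on log2(TPM + 1), with Benjamini-Hochberg adjusted p under 0.05, called 18081 of the 35700 tested genes (50.6%). Of these, 4892 rose (13.7% of tested) and 13189 fell (36.9%). Across the tested genes, log2 changes had a median of -0.38. Dividing each of the 28 libraries by its median ratio to their geometric mean moved this median to 0.04, and 14829 genes (41.5%) were then called, with 8429 higher (23.6%) and 6400 lower (17.9%). The share of rises among the calls was thus 27.1% for TPM as deposited and 56.8% after scaling. The median-ratio scaling takes the middle of all genes as unchanged, which was not tested.

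Comparing both calls sorted the genes into groups whose direction does or does not rest on the scaling. All 4892 genes that rose in the TPM as deposited also rose after scaling, and none of the 13189 fallen genes rose after it. A fall was called with and without scaling for 6400 genes. A further 6789 genes fell as a share of transcripts, with a median log2 change of -0.66, but were not called after scaling, where their median was -0.24. Another 3537 genes were called higher after scaling alone, with a median log2 change of 0.67 there and 0.23 in the TPM as deposited. The remaining 14082 genes, 39.4% of those tested, were called by neither. Without regard to any test, XEG1 and mock values did not overlap for 27942 genes (78.3%), of which 7069 (19.8%) were higher and 20873 (58.5%) lower after XEG1. After scaling 13605 (38.1%) were higher and 11598 (32.5%) lower.

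**Figure D1:**
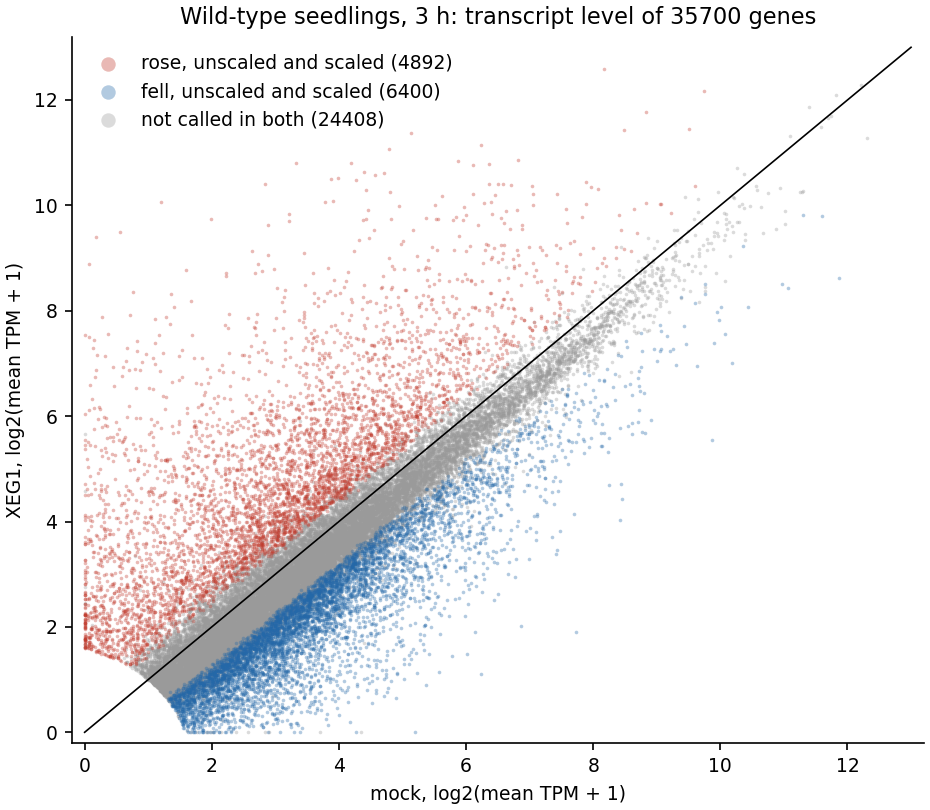
Transcript level of each of the 35700 tested genes after XEG1 (vertical axis) against mock (horizontal axis), both as log2(mean TPM + 1) over 2 libraries, with the line of equal level. The 4892 genes that rose both unscaled and scaled (red) reach farther from the line than the 6400 that fell both ways (blue), and the dense body of points lies below the line. The empty corner at the lower left holds the genes under the mean of 1 TPM.

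Rises were fewer than falls in the TPM as deposited and more numerous after scaling, and on both scales the largest changes were rises. Among called genes the median log2 change was 1.44 for the rises and -0.90 for the falls. After scaling these medians were 1.18 and -0.93. A change of at least 1 on the log2 scale, a doubling of TPM + 1 or its reverse, was reached by 3354 rises and 5482 falls. At a log2 size of at least 2 the order had turned, with 1587 rises and 986 falls. At 3 or more there were 709 rises (1.99% of tested genes) and 196 falls (0.549%), at 4 or more 307 and 20, and at 5 or more 135 and 3. No fall reached 6, while 63 rises did, and 4 of these reached 8. After scaling, rises outnumbered falls at every size from 1 upward, with 4905 against 2868 at 1 or more, 1051 against 112 at 3 or more and 88 against 0 at 6 or more. In the TPM as deposited, 5% of all tested genes had a log2 change below -1.66 and 5% one above 1.84. Falls of genes with few TPM are bounded on this scale, because a gene cannot fall below 0 TPM.

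**Figure D2:**
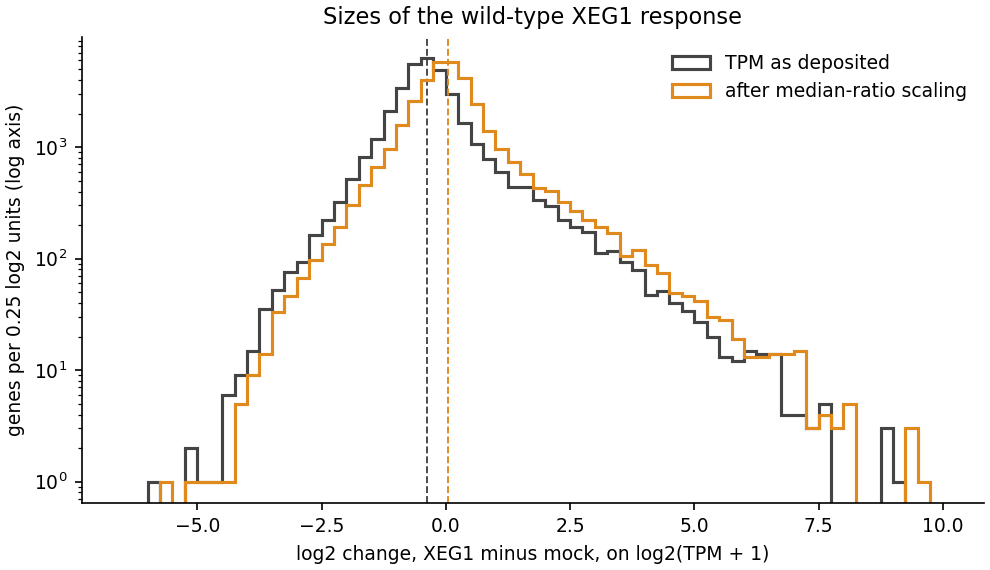
Number of tested genes (log axis) per step of 0.25 in log2 change, XEG1 minus mock, for TPM as deposited and after median-ratio scaling, with dashed lines at the medians of -0.38 and 0.04. Scaling shifts the whole distribution to the right, and in both forms the right tail is longer than the left one.

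The largest rise was that of Niben101Ctg08590g00001, which held 564.1 and 789.7 TPM in the XEG1 libraries and 0.0801 and 0.177 TPM in the mock libraries. Both XEG1 libraries were high and both mock libraries near 0. Its mean was 677 ± 160 TPM after XEG1 and 0.128 ± 0.068 TPM in mock (SD, n = 2 each). The log2 change was 9.21, SE 0.18 (limma, adjusted p 3.47e-17), and 9.72 after scaling. In the other 24 libraries of the study it never exceeded 0.404 TPM and was listed at 0 in 18. The SE and p-value draw on the spread of all 14 groups, so these libraries near 0 enter them. They do not measure the spread of the XEG1 libraries alone. With the 4 wild-type libraries alone, adjusted p was 2.44e-21 unscaled and 8.03e-08 scaled (limma). These fits still draw the spread of a gene toward that of other genes. Neither p-value measures the spread of this gene in its 4 libraries alone. Of the genes above 0 in all 4 libraries, the next by rise held 669.8 and 768.5 TPM after XEG1 and 0.716 and 0.226 TPM in mock. Another large rise was that of a gene with 833.1 and 868.0 TPM after XEG1 against 2.71 and 3.22 TPM in mock, a log2 change of 7.75. These genes were ranked only if their groups did not overlap, so that gap was set by the choice. The XEG1 replicates were close in the last 2 of them and farther apart at Niben101Ctg08590g00001. A gene with a log2 change of 7.15 differed more between its XEG1 replicates, at 312.7 and 171.3 TPM against 0.704 and 0.573 TPM in mock.

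The largest fall without a listed 0 was that of Niben101Scf24053g00003, with 3.87 and 1.66 TPM after XEG1 and 231.5 and 189.2 TPM in mock. Its log2 change was -5.87, SE 0.28 (limma, adjusted p 8.40e-12), and -5.51 after scaling. In the other 24 libraries it held 86.1 to 229.5 TPM, so both wild-type XEG1 libraries lay below the whole range of the study. Of the genes above 0 in all 4 libraries, the next by fall held 1.67 and 0.639 TPM after XEG1 and 83.6 and 64.9 TPM in mock, a log2 change of -5.16. Strong falls also occurred at high levels. One such gene held 48.6 and 42.7 TPM after XEG1 against 1086 and 785.1 TPM in mock, with a log2 change of -4.31 and of -3.84 after scaling.

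Estimates from separate libraries shared most large rises and most large falls, with a lower share for falls at a log2 size of 3. The change between the libraries numbered 1 and that between the libraries numbered 2, which share no library, correlated at 0.924 across the 35700 genes, given as a description because genes are not independent of each other. Of 718 genes with a log2 rise of at least 3 between the first pair, 628 rose by as much between the second pair and 711 rose by at least 1. Of 229 genes with a fall of that size between the first pair, 132 fell by as much between the second and 222 fell by at least 1. From all 4 libraries together, 1.99% of tested genes were called with a rise of at least 3 and 0.549% with a fall. At 1 or more, 3354 rises and 5482 falls were called among the 35700. Few called falls lay far beyond the limit of 3, with 20 at 4 or more against 307 rises. The median change over all genes was -0.27 in the first pair and -0.46 in the second, so the shift of the median gene was negative in both pairs and of unequal size.

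The next question was which part of the expression range responded. Genes were sorted into bands of mean TPM over the 4 wild-type libraries, and rises and falls called with and without scaling were counted. Of the 4535 genes between 1 and 2 TPM, 363 rose and 795 fell. Of the 6530 genes between 10 and 20 TPM, 15.7% rose and 16.7% fell. Of the 1697 genes between 100 and 500 TPM, 425 rose and 129 fell, and of the 182 genes at 500 TPM or more, 33.0% rose and 8.79% fell. In this sorting rises were thus more frequent at high levels, and 38 of the 182 most abundant genes rose by a log2 size of at least 3, which is 20.9%.

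That sorting uses the XEG1 libraries themselves, so a strongly induced gene enters a high band through its own induction. The 12 mock libraries of the other genotypes give a level in which wild type had no part, and by it rises were fewest in the top band. Of the 186 genes at 500 TPM or more there, 1.61% rose and 12.9% fell, and none rose by a log2 size of 3. Of the 1511 genes between 100 and 500 TPM, 5.43% rose and 13.6% fell. Of the 7325 genes between 10 and 20 TPM, 11.1% rose and 20.6% fell, and of the 7898 between 5 and 10 TPM, 12.2% rose and 20.5% fell. From 5 TPM upward the limit of 1 TPM on the wild-type mean left out at most 2 genes a band. It left out 2.68% of the genes between 2 and 5 TPM, 42.8% of the 4044 between 1 and 2 TPM and 86.4% or more below that. In those low bands genes that were higher in wild type passed the limit and lower ones did not, so their shares of rises and falls are not a result.

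**Figure D3:**
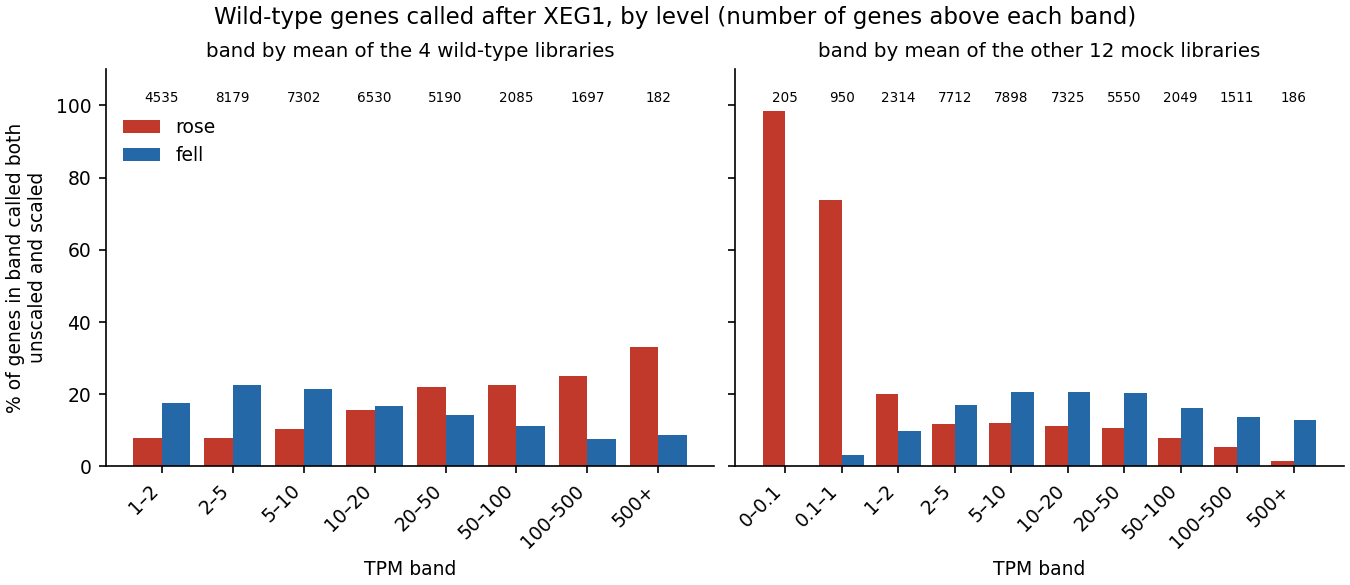
Share of genes per level band that rose (red) or fell (blue) in wild type after XEG1, called both unscaled and scaled, with the number of genes above each band. With bands from the 4 wild-type libraries (left) the share of rises is highest, at 33.0%, in the top band; with bands from the mock libraries of the other genotypes (right) it is 1.61% in the top band, and in the bands under 2 TPM the limit of the test left out 42.8% or more of the genes.

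Without any limit on the wild-type level, the genes that are nearly silent in other genotypes can be counted on both sides. The list holds 16335 genes with a mean under 0.1 TPM in the 12 mock libraries of the other genotypes. In wild type, 259 of them were at 1 TPM or more in both XEG1 libraries and 3 in both mock libraries. At 10 TPM or more there were 46 after XEG1 and 0 in mock, and at 100 TPM or more 9 and 0. Of the 6987 genes between 0.1 and 1 TPM in those libraries, 211 reached 10 TPM in both XEG1 libraries and 0 in both mock libraries, and 27 reached 100 TPM after XEG1. At the other end, 1059 of the 1697 genes at 100 TPM or more in the other genotypes were still at 100 TPM or more in both XEG1 libraries, against 1482 in both mock libraries. Nearly all of them, 1693, kept at least 10 TPM after XEG1. All these counts use TPM as deposited and were not repeated after scaling. For the genes between 100 and 500 TPM there, the median log2 change was -0.461 as deposited and 0.022 after scaling. At 500 TPM or more it was -0.555 and -0.070.

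Between the XEG1 replicates the median absolute log2 difference was 0.203 from 1 to 2 TPM and 0.152 from 100 to 500 TPM. Between the mock replicates it was 0.268 and 0.194. These are differences of single libraries, while the changes below are differences of means of 2. The median absolute log2 change between treatment means, unscaled, was 0.489 and 0.571 in the same bands. It includes the shift of the median gene, which was -0.373 and -0.310 there before scaling. Among the 182 genes at 500 TPM or more the median absolute replicate difference was 0.195 in XEG1 and 0.311 in mock. The median absolute change there was 0.945.

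The genes that rose held a much larger share of all transcripts after XEG1 than in mock. The 4892 genes that rose held 36.0% and 38.2% of all TPM in the XEG1 libraries, against 8.38% and 8.42% in the mock libraries. The 6400 genes that fell with and without scaling held 5.47% and 4.67% after XEG1, against 17.6% and 17.4% in mock. The 6789 genes that fell only in the TPM as deposited held 20.1% and 18.6%, against 31.3% and 31.5%. The genes were chosen by their change in these libraries, so these shares describe the response and are not tested. Gains in mean TPM summed to 30.9% of the total, and 230 genes carried 50% of all gains, while 1109 genes carried 50% of all losses. The 10 largest gains made up 8.94% of the gain and the 100 largest 35.4%, against 5.89% and 19.5% for the losses.

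**Figure D4:**
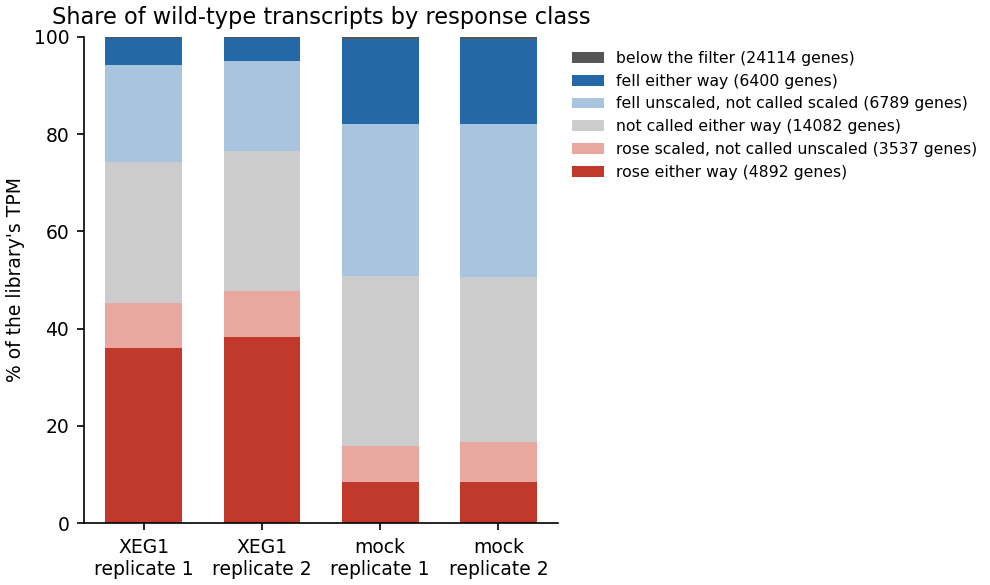
Share of each wild-type library's TPM held by genes of each response class, for the 2 XEG1 libraries and the 2 mock libraries. The genes that rose with and without scaling take 36.0% and 38.2% after XEG1 against 8.38% and 8.42% in mock, and both replicates of a treatment are alike.

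The most abundant transcripts changed places. Among the 100 genes with the highest mean TPM after XEG1 and the 100 with the highest mean in mock, 35 were shared. Replicates shared 86 of their top 100 genes after XEG1 and 87 in mock. The 65 genes that entered the list after XEG1 had a median of 76.4 TPM in mock, and 4 of them were under 10 TPM there. The most abundant gene of the XEG1 libraries held 5599 and 6688 TPM, against 275.8 and 298.3 TPM in mock, with a log2 change of 4.41. This was also the largest gain in TPM of any gene. The most abundant gene of the mock libraries held 2470 and 2490 TPM after XEG1 and 4933 and 5155 TPM in mock, and its adjusted p was 0.0472 in the TPM as deposited and 0.445 after scaling (limma). The groups do not overlap, but the call rests on the scaling.

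Of the 20 genes with the highest mean after XEG1, 12 rose with and without scaling and 0 fell, and of the 20 with the highest mean in mock, 5 fell with and without scaling and 0 rose. Over all tested genes 13.7% rose and 17.9% fell in this sense. Each list was chosen by a level that the change itself sets, so these counts are a description. A further 7 of the mock list fell only in the TPM as deposited. Among these abundant falls was a gene with 432.1 and 355.9 TPM after XEG1 and 4320 and 3177 TPM in mock, the largest loss in TPM of any gene, with a log2 change of -3.24 and of -2.75 after scaling. The 8 genes in both lists held 2.62% and 2.90% of all TPM after XEG1, against 2.54% to 3.08% in mock, and their log2 changes lay between -1.02 and 0.47. Limma called 1 of these 8 genes lower in the TPM as deposited only, and 1 other gene higher after scaling only. An example of a level that moved little is the gene with 4672 and 5348 TPM after XEG1 against 4911 and 4632 TPM in mock, whose groups overlap.

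Genes accounting for 50% of all TPM numbered 1424 and 1383 in the XEG1 libraries and 1632 and 1971 in the mock libraries. The groups do not overlap, and with 2 libraries against 2 the smallest two-sided p of an exact permutation test is 0.333. The 24 libraries of the other genotypes needed 1480 to 2306 genes, more than either wild-type XEG1 library.

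The third question was how many genes changed between a listed 0 and expression. Listed at 0 in both mock libraries and at 1 TPM or more in both XEG1 libraries were 115 genes, 0.192% of the 59814 listed. The reverse, a listed 0 in both XEG1 libraries and at least 1 TPM in both mock libraries, held for 44 genes (0.0736%). In the 6 other genotypes the same rule gave 3 to 15 genes switched on and 3 to 10 switched off. A listed 0 is uncertain by itself. Between the replicates of the XEG1 group, 77 genes were at 0 in replicate 1 and at 1 TPM or more in replicate 2, and 62 the other way round. In mock these counts were 61 and 45. The counts rest on having 2 libraries at 0: without mock replicate 1 there would be 201 genes switched on, without mock replicate 2 there would be 179, without XEG1 replicate 1 there would be 162 switched off and without XEG1 replicate 2 there would be 156. Without mock replicate 1 or 2 the genes switched off would number 87 and 91. Because a gene at 0 can be a failed estimate, no fold change is given for these genes.

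**Figure D5:**
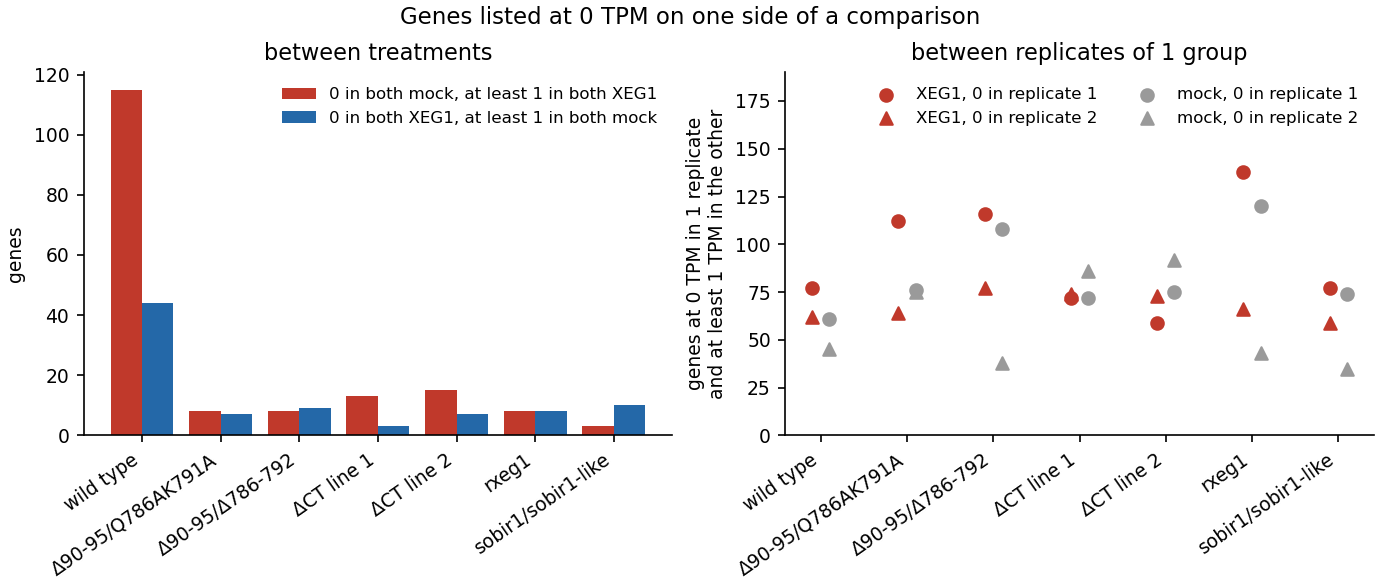
Left, number of genes per genotype listed at 0 TPM in both mock libraries and at least 1 TPM in both XEG1 libraries (red) or the reverse (blue); wild type has 115 and 44, the other genotypes 3 to 15 and 3 to 10. Right, number of genes per genotype at 0 TPM in 1 replicate and at least 1 TPM in the other replicate of the same group, which is 45 to 77 in wild type and 35 to 138 in the others.

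Most of the 115 genes switched on reached low levels. Their mean after XEG1 had a median of 3.02 TPM and a highest value of 185 TPM, with 34 genes between 1 and 2 TPM, 52 between 2 and 5, 15 between 5 and 10, and 14 at 10 TPM or more. The XEG1 replicates lay within a factor of 2 of each other for 104 of the genes. The highest was Niben101Scf00568g04054, with 206.0 and 164.1 TPM after XEG1 and 0 in both mock libraries. Elsewhere in the study its highest value was 0.300 TPM, and 18 of 24 libraries listed it at 0. The next genes held 83.2 and 45.6 TPM, 50.1 and 41.6 TPM, and 51.0 and 34.6 TPM after XEG1. The last of these was listed at 0 in all 24 libraries of the other genotypes as well.

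Most of these genes were also near 0 in mock libraries that did not choose them. Of the 115 genes, 40 were at 0 in all 12 mock libraries of the other genotypes, 100 had a mean of at most 0.1 TPM there, and 108 stayed under 1 TPM in every one. Of all 59814 genes listed, 16335 had a mean under 0.1 TPM there. The share among all genes at 0 in both wild-type mock libraries was not counted, so these counts are a description. In the 12 XEG1 libraries of those genotypes, 107 stayed under 1 TPM in every one and 31 were at 0 in all. In 5 genes both XEG1 libraries of some other genotype reached 1 TPM, and in 6 genes both mock libraries of some genotype did. Of the 115, 81 passed the limit of 1 TPM over the 4 libraries and 78 of those were called. They had to be much higher after XEG1 to pass, so this count is not a result.

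The 44 genes switched off were mostly low in mock, and some were also listed at 0 in libraries of other genotypes. Their mock mean had a median of 2.28 TPM and a highest value of 35.8 TPM, and 2 genes were at 10 TPM or more. The highest was Niben101Scf13085g00001, at 0 in both XEG1 libraries and at 37.5 and 34.1 TPM in mock. Elsewhere 16 of 24 libraries listed it at 0, 9 of them mock libraries, and the remaining 8 held 19.6 to 26.8 TPM, so 0 was listed under both treatments. The next 3 genes behaved differently. They held 16.2 and 20.3 TPM, 10.3 and 8.64 TPM, and 10.9 and 6.78 TPM in mock, and none was at 0 in any of the 24 other libraries, where their mock means were 21.8, 9.01 and 10.5 TPM. In all, 28 of the 44 genes were above 0 in all 24 libraries, and 14 were at 0 in at least 1 of the 12 other mock libraries.

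With a looser rule, genes that stood under 1 TPM in both libraries of one treatment and at 10 TPM or more in both of the other numbered 168 higher after XEG1 and 28 lower. At 100 TPM or more there were 19 and 0. Starting from under 10 TPM, 94 genes were at 100 TPM or more in both XEG1 libraries, and 3 genes made the reverse change.

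Some genes with large rises stood next to each other among the tested genes of a scaffold, taken in identifier order. Identifiers give the scaffold of a gene and a number on it, and 35660 of the 35700 could be read this way, on 8264 scaffolds. The next tested gene on the scaffold rose by at least 3 for 58 of 517 genes that did so themselves, which is 11.2%, against 1.97% of next genes over all 27396 pairs. For the second next gene the share was 4.82% (20 of 415), for the fifth 4.11% (9 of 219) and for the tenth 1.30% (1 of 77). Over all pairs at those distances it was 1.98%, 1.96% and 2.33%. For falls of that size it was 5 of 150 next genes, or 3.33%, against 0.522% over all pairs. Over all pairs the log2 changes of next tested neighbours correlated at 0.141, those of genes 5 tested genes apart at 0.028. These are a description across genes that may be copies of each other. The sources used here do not state how reads that match several copies were counted.

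The scaffold with the most such rises, Niben101Scf04040, held 17 tested genes, of which 5 rose by at least 3. It was singled out after its values were seen. Its last 7 tested genes in identifier order had log2 changes between 2.94 and 6.59, each called by limma, and between 3.41 and 7.08 after scaling. They held 10.7 to 360.4 TPM after XEG1 and 0.634 to 10.7 TPM in mock. The first 10 tested genes of the same scaffold had log2 changes between -1.22 and 0.27, with 0 called higher and 3 lower in the TPM as deposited.

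The last question was where the wild-type response differed from that of seedlings without the receptor or without SOBIR1. The difference between the wild-type log2 change and the mean log2 change of the rxeg1 and sobir1/sobir1-like knockouts was tested in the same fit. Limma called 14152 of 35700 genes (39.6%), 3994 with a higher (11.2%) and 10158 with a lower change in wild type (28.5%). After scaling it called 11479 genes (32.2%), 6909 higher (19.4%) and 4570 lower (12.8%). Higher differences were 28.2% of the calls in the TPM as deposited and 60.2% after scaling. This comparison uses the same 4 wild-type libraries as the response itself and is no independent evidence for it.

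At Niben101Ctg08590g00001 the 4 XEG1-treated knockout libraries held at most 0.373 TPM, and the log2 change was larger in wild type by 9.06, SE 0.22 (limma, adjusted p 1.83e-15). The limit given above for the SE of this gene holds here too. At Niben101Scf24053g00003 the XEG1-treated knockouts held 139.9 to 198.7 TPM and the mock-treated knockouts 163.7 to 225.2 TPM, and the log2 change was lower in wild type, with a difference of -5.55, SE 0.35 (limma, adjusted p 6.68e-10). Niben101Scf00568g04054 held at most 0.300 TPM in the XEG1-treated knockouts. In these 3 genes the wild-type XEG1 libraries lay outside the range of the XEG1-treated knockouts. Niben101Scf13085g00001 held 0 to 26.8 TPM in the XEG1-treated knockouts, with 2 of these 4 libraries at 0. Its wild-type XEG1 value of 0 thus lay within their range. All 4 genes were chosen by their wild-type values.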

How the data were processed

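Per the labels' protocols, seedling RNA was purified and made into sequencing libraries with commercial kits. HISAT2 2.0.4, a spliced aligner, is named per the submitters' processing notes. Build, annotation and counting step: not given in the sources used here. For every library there is 1 table of TPM made by the authors. A combined table of the libraries was not used here.

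Groups were genotype and treatment, 14 groups of 2 libraries. Limma 3.58.1 (R 4.3.3, statmod 1.5.0) (trended prior variance, robust setting) was fitted to log2(TPM + 1) of all 28 libraries as 14 group means with 14 residual degrees of freedom, since 2 libraries a group leave little to estimate the spread from. P-values were Benjamini-Hochberg adjusted over 35700 genes. Log2 changes on this scale understate those of low genes. The test was checked on simulated data. Median-ratio factors came from tested genes above 0 in all libraries.

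Without gene names, the identifiers printed are the called gene with the largest rise, the called gene with the largest fall not listed at 0, and the genes with the highest level among those switched on and off. The largest log2 rises and falls were ranked only among genes whose XEG1 and mock values did not overlap. Scaffold Niben101Scf04040 and the genes given by rank without an identifier were chosen after their values were seen. Members, bands and rules were chosen with earlier results of these data known. Alternatives are given in the closing section.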

Additional observations from a re-analysis of the deposited data

Results flagged for a closer look

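The difference between the wild-type response and the mean response of both knockouts was tested with limma and is listed here because effects of the same treatment differed between genotypes. It was called for 14152 genes. Among the genes given by identifier, it was a log2 difference of 9.06 at Niben101Ctg08590g00001 and of -5.55 at Niben101Scf24053g00003. Groups of 2 libraries were too small to look for a library apart from its group.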

How the results depend on the processing

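The wild-type response called 18081 genes. A pseudocount of 0.1, no filter, a filter over all 28 libraries, a fit of the compared groups alone and median-ratio scaling called 13747 to 19005, within 1.5 times of that number; the difference called 12546 with the compared groups alone. Requiring an absolute log2 change of at least 1 left 8836 genes for the response and 8240 for the difference from the knockouts. The counts were 13041 to 15881 with 1 wild-type library left out and 9933 to 14914 for the difference with 1 wild-type or knockout library left out. A lone library was then assumed to vary like the other groups.

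Replicate numbers are shared between groups, but the labels tie them to no batch or day. Deviations of same-numbered libraries correlated across genes at 0.165 in wild type, 0.737 in rxeg1, 0.37 in sobir1/sobir1-like, 0.493 and 0.545 in 2 construct lines, and -0.0175 and -0.00164 in the other 2. Not every genotype of the fit exceeded 0.1, but wild type and both knockouts, the genotypes compared here, did. The main fit has no block. With a replicate block the response called 19812 genes and the difference 15877. A replicate block in the compared groups alone, added after the data were examined, called 20845.

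Genes switched on numbered 25 at 5 TPM or more and 141 to 201 with 1 library left out. Genes switched off numbered 7 at 5 TPM or more, 85 with at most 0.1 TPM in place of 0, and 87 to 162 with 1 library left out. Of the results for single genes, 1 lost its call: the difference from the knockouts at Niben101Scf13085g00001 had an adjusted p of 0.0540 (limma) with the compared groups alone, and 0.0035 to 0.0540 over all settings. Followed gene by gene, no call of the wild-type response reversed direction under these settings; the difference was followed by its totals and the 4 genes given by identifier only. In bands from the wild-type libraries, median log2 changes from 10 TPM upward were negative in the TPM as deposited and positive after scaling. In bands from the mock libraries of the other genotypes, they were also negative in the TPM as deposited. After scaling, the medians of those bands were 0.0037 to 0.042 from 10 to 500 TPM, and -0.070 at 500 TPM or more. TPM keep no depth, so no depth limit can be given.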
